A study of Arabidopsis thaliana with 72 samples.

Results

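The microRNAs miR399 and miR827, the target mimics IPS1 and AT4, and the microRNA targets PHO2 and NLA were followed in Arabidopsis roots through 9 genes. They were chosen by locus: IPS1 (AT3G09922), AT4 (AT5G03545), MIR399B (AT1G63005), MIR399C (AT5G62162), MIR399D (AT2G34202), MIR399F (AT2G34208), MIR827 (AT3G59884), PHO2 (AT2G33770) and NLA (AT1G02860). These are 9 of 33602 genes in a table of RPKM, in which reads are scaled by gene length and library depth. All 9 passed the filter of at least 1 RPKM in at least 3 libraries that 21206 genes passed. MIR399B, MIR399C, MIR399D and MIR399F did so through -Pi libraries alone, MIR399F through just 3. Each of 12 genotypes was grown for 8 days on medium without phosphate (-Pi) or with phosphate (+Pi), and roots were sequenced in 3 libraries per genotype and medium, 72 in all. The mutants lacked, by their labels, PHR1 or its relatives PHL1 to PHL4, which are transcription factors of phosphate starvation. They were the quadruple phr1phl1phl2phl3, the triple phr1phl1phl2, the doubles phr1phl1, phr1phl2, phr1phl3 and phr1phl4, and the singles phr1, phl1, phl2, phl3 and phl4. The reference genotype was the wild type col-0, written Col. The labels do not name the alleles and do not say which plants stood on agar and which on agarose.

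When phosphate is short, plant cells switch on genes of phosphate uptake, and PHR1 is known to act at promoters that hold the short DNA element P1BS. One branch of this response removes the brakes on phosphate transport. The microRNA miR399 cuts the messenger RNA of PHO2, a ubiquitin-conjugating enzyme that sends the xylem loader PHO1 and phosphate transporters to degradation. The microRNA miR827 acts on NLA, a ubiquitin ligase that removes phosphate transporters from the cell surface. IPS1 and AT4 are long noncoding RNAs that bind miR399 through a site with a bulge where cutting would occur, so they hold the microRNA away from PHO2 (target mimicry).

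The mature microRNAs show which loci share a target. In RefSeq's TAIR10.1 annotation they read as follows, 5′ to 3′, with the seed (bases 2 to 8) in capitals.
miR399b: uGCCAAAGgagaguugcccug
miR399c-3p: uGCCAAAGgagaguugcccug
miR399d: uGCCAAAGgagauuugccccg
miR399f: uGCCAAAGgagauuugcccgg
miR827: uUAGAUGAccaucaacaaacu
All 6 annotated mature miR399 guides, a and e included, shared the seed GCCAAAG. The guides from MIR399B and MIR399C had the same letters throughout. The seed of miR827, UAGAUGA, was held by none of them.

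The sites below were found in the longest annotated transcript of each gene. Capitals mark bases that pair with miR399d (miR827 for NLA), G:U pairs included, and lower case marks unpaired bases and, in the mimics, the bulge.
IPS1: UuGGGCAAcUUcuaUCCUUUGGCA
AT4: UuGGGCAAcUUcgaUCCUUUGGCA
PHO2, place 1: UaGGGCAAAUCUUCUUUGGCA
PHO2, place 2: UaGGGCAuAUCUCCUUUGGCA
PHO2, place 3: UuGGGCAAAUCUCCUUUGGCA
PHO2, place 4: UcGaGCAAAUCUCCUUUGGCA
PHO2, place 5: UaGaGCAAAUCUCCUUUGGCA
NLA: uGUUUGUUGAUGGUCAUCUAA
IPS1 and AT4 differed in this site only inside the bulge of 3 bases. Of 36958 genes searched, 3 (0.00812%) held a bulged site with at most 1 base unpaired to miR399b, namely IPS1, AT4 and DGK3. A site for miR399b with no bulge and at most 3 unpaired bases stood in 341 genes (0.923%). PHO2 held 5 such places and was the 1 gene with that many. A miR827 site with at most 1 unpaired base stood in 1 gene, NLA. These are matches of letters and not measured cuts.

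The libraries were made from RNA captured with oligo(dT), so mature microRNAs were not measured. The values of the MIR loci are reads on precursor transcripts over short annotated hairpins (100 bases for MIR399D, 135 for MIR399B). Low values of the 5 MIR loci were whole multiples of 1 read within 0.1 read, and read numbers are given on that basis. For MIR827 this took a length of 104 bases in place of the 177 annotated in TAIR10.1. That length was picked because it made the values whole, so their wholeness is no check at MIR827. The spacing of low values put depth at 11.1 to 42.1 M reads per library (median 23.0). Levels of PHR1, PHL1 and PHL2 separated the libraries labelled with and without each mutation. PHL3 did so in phr1phl3, at 1.93 to 3.87 RPKM, but not elsewhere: it was at 6.31 to 16.3 RPKM in libraries labelled phl3 and at 5.45 to 16.4 RPKM in those labelled phr1phl1phl2phl3, against 3.99 to 15.6 RPKM where no phl3 mutation is labelled. PHL4, at 2.73 to 5.02 RPKM in the libraries labelled with phl4 and 3.21 to 18.7 RPKM in the others, did not separate them fully either, so these groups are named by label. Among 7 root markers none was at 0 in any group. Libraries also fell into 3 classes of 33, 22 and 17 by how their values sloped with GC content, adenine content and gene length. Class 1 held all Col -Pi, phr1 and phr1phl1 -Pi libraries, class 2 all phl2, phl3 and phr1phl3 -Pi libraries, and class 3 all phl2, phl3 and phr1phl1phl2phl3 +Pi libraries. A fit with a class term is given where it ended a call.

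In Col, phosphate deficiency raised both mimics, 3 miR399 precursors and the miR827 precursor, and lowered NLA, while PHO2 did not pass. IPS1 was at 2361, 2068 and 1756 RPKM in Col -Pi roots, against 1.17, 5.93 and 3.25 RPKM in Col +Pi roots. AT4 was at 4964, 4827 and 5064 RPKM in Col -Pi roots, against 244, 781 and 454 RPKM in Col +Pi roots. The -Pi values of both mimics lay far above all +Pi values, and AT4 had the higher level of the pair on either medium. MIR399D was at 116, 108 and 49.1 RPKM in Col -Pi roots (309, 253 and 106 reads) and was listed at 0 in all 3 Col +Pi libraries. MIR399C was at 24.4, 32.2 and 16.7 RPKM and MIR399B at 3.34, 3.80 and 3.09 RPKM in Col -Pi roots, and both were listed at 0 in Col +Pi roots. MIR827 was at 25.7, 22.6 and 11.1 RPKM in Col -Pi roots, against 0, 0 and 0.435 RPKM in Col +Pi roots. The third Col -Pi library was the lowest at MIR399D, MIR399C and MIR827, and it still stood above every +Pi value. In bulk roots, fewer cells of a type and less RNA per cell cannot be told apart.

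Of the targets, NLA was called lower in Col -Pi roots and PHO2 was not called. NLA was at 6.71, 5.38 and 4.79 RPKM in Col -Pi roots, against 14.0, 16.1 and 17.6 RPKM in Col +Pi roots, with no overlap. PHO2 was at 62.9, 62.8 and 63.8 RPKM in Col -Pi roots, against 31.1, 59.7 and 57.7 RPKM in Col +Pi roots, where the low first library is of class 2 and the other 5 are of class 1. Differences were fitted with limma on log2(RPKM + 1), a scale that understates changes of low genes, and a call needs both a Benjamini-Hochberg adjusted p under 0.05 and a log2 difference of at least 1. In this fit (± SE, n = 3 per group), IPS1 rose by 9.0 ± 0.31, MIR399D by 6.43 ± 0.31, MIR399C by 4.62 ± 0.31, MIR827 by 4.13 ± 0.40, AT4 by 3.48 ± 0.47 and MIR399B by 2.14 ± 0.17, with adjusted p at most 1.78e-08. NLA fell by 1.36 ± 0.14 (adjusted p = 1.31e-11). PHO2 differed by 0.40 ± 0.28 (adjusted p = 0.24) and MIR399F by 0.32 ± 0.19 (adjusted p = 0.168). Thus 6 of 9 members were higher and 1 lower, where 6.24% of all tested genes were called higher and 8.2% lower. MIR399B, MIR399C and MIR399D are among these 6 and passed the filter through -Pi libraries alone, so that count is not independent of the filter. The median difference was 3.48 over the members and 0.02 over all tested genes. All 5 markers of green shoot tissue were also lower in Col -Pi roots, with summed levels of 8.35 to 9.86 RPKM against 190.6 to 289.9 RPKM in Col +Pi roots, and their part in these results was not tested. Replicates are called biological in the series, and no label names separate plates, so p-values measure the spread between these samples, which may be technical.

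The mimics responded in every genotype, but from very different bases. In each of the 12 genotypes IPS1, AT4 and MIR827 were called higher under -Pi than under +Pi, with log2 differences of 4.96 (phr1phl1) to 9.28 (phl2) for IPS1, 3.04 (phl4) to 9.62 (phr1phl1phl2phl3) for AT4 and 2.14 (phr1phl1phl2phl3) to 4.13 (Col) for MIR827. Over all 36 -Pi libraries IPS1 was at 25.6 RPKM or more, above the highest +Pi library at 5.93 RPKM. MIR827 was listed at 0 in 26 of 36 +Pi libraries. MIR399C was called higher in 9 genotypes, MIR399D in 7 and MIR399B in 5. In 3 of these the call ended without 1 -Pi library: MIR399C in phr1phl1phl2 (0.77 without the first), MIR399D in phr1phl2 (0.87 without the second) and in phr1phl4 (0.91 without the second). The same held for MIR399B in phl4, at 0.67 without its second -Pi library. NLA was called lower in 8 genotypes. Its differences in the other 4 were -0.26 in phr1phl1, -0.71 in phr1phl2, -0.38 in phr1phl1phl2 and 0.42 in the libraries labelled phr1phl1phl2phl3. Over the 12 comparisons 57 of 108 member tests were called higher and 13 lower, where 12.4% of all tests were called higher and 5.64% lower. The higher calls include those of MIR399B, MIR399C and MIR399D, which passed the filter through -Pi libraries alone.

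**Figure D1:**
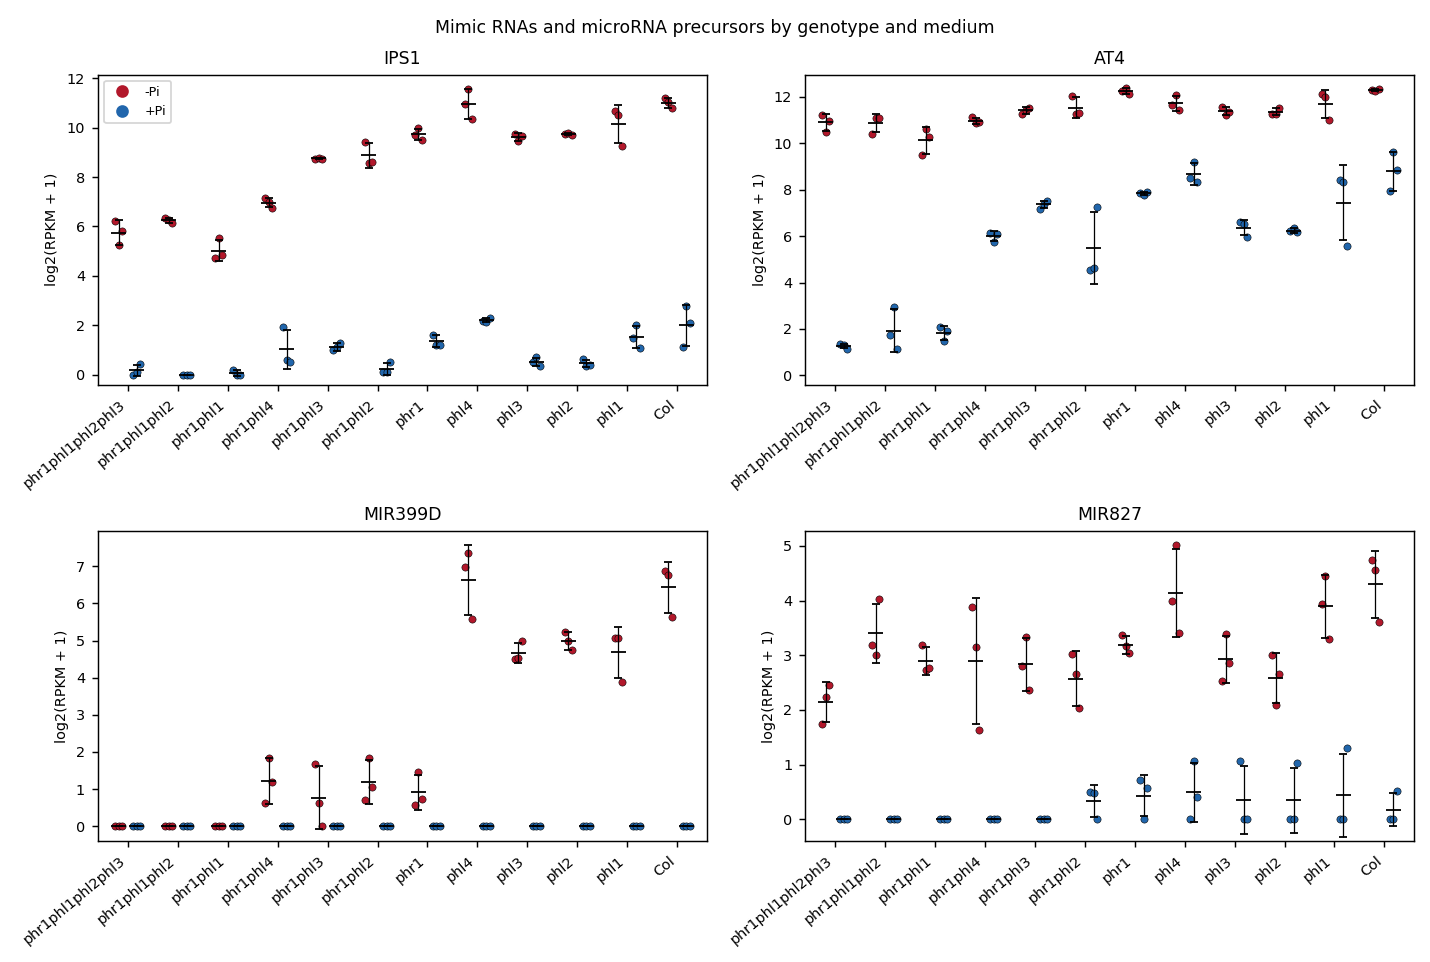
Levels of IPS1, AT4, MIR399D and MIR827 as log2(RPKM + 1), by genotype, with -Pi to the left of +Pi. Points are libraries, bars are means and error bars are SD (n = 3). MIR399D stands at 0 in all 36 +Pi libraries and in the -Pi libraries of phr1phl1, phr1phl1phl2 and phr1phl1phl2phl3, where AT4 still has 716 RPKM or more.

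PHO2 was called lower under -Pi in 5 genotypes, each with libraries of other classes than 1. It was at 35.7, 33.4 and 33.4 RPKM in phl2 -Pi roots, against 115, 118 and 113 RPKM in phl2 +Pi roots. In roots labelled phl3 it was at 28.0, 35.6 and 30.1 RPKM under -Pi, against 115, 121 and 145 RPKM under +Pi. The log2 differences were -1.99 in phl3, -1.73 in phl2, -1.31 in phr1phl2, -1.16 in phr1phl3 and -1.04 in phl1. With the class term they were -0.92, -0.66, -0.60, -0.45 and -0.69 in the same order, with adjusted p at most 0.0223, so none reached the log2 threshold. In phl1 the call also ended without the third -Pi library (-0.67) and without the third +Pi library (-0.90). These groups differ in class as well as in medium, so the medium and the class cannot be told apart in phl2, phl3 and phr1phl3. In the groups that hold classes 2 and 1, PHO2 was lower in class 2 than in class 1 libraries in 9 of 9, AT4 likewise in 9 of 9 and IPS1 in 6 of 9. NLA was lower in class 2 in 4 of these 9 and higher in 3. Where groups hold classes 3 and 1, PHO2 was higher in class 3 in 3 of 4. There AT4 and NLA were each lower in class 3 in 4 of 4 and IPS1 in 3 of 4. Each of these groups has just 1 library in at least 1 class, and AT4 in phr1phl1phl2 -Pi roots was at 2138 (class 2) against 2153 RPKM (class 1). No share over all genes is given for these counts, so they do not set these members apart from other genes. The classes themselves were drawn from slopes that include gene length. PHO2 in phl1 -Pi roots was at 84.1 and 73.1 RPKM in the class 1 libraries and at 35.7 RPKM in the class 2 library.

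**Figure D2:**
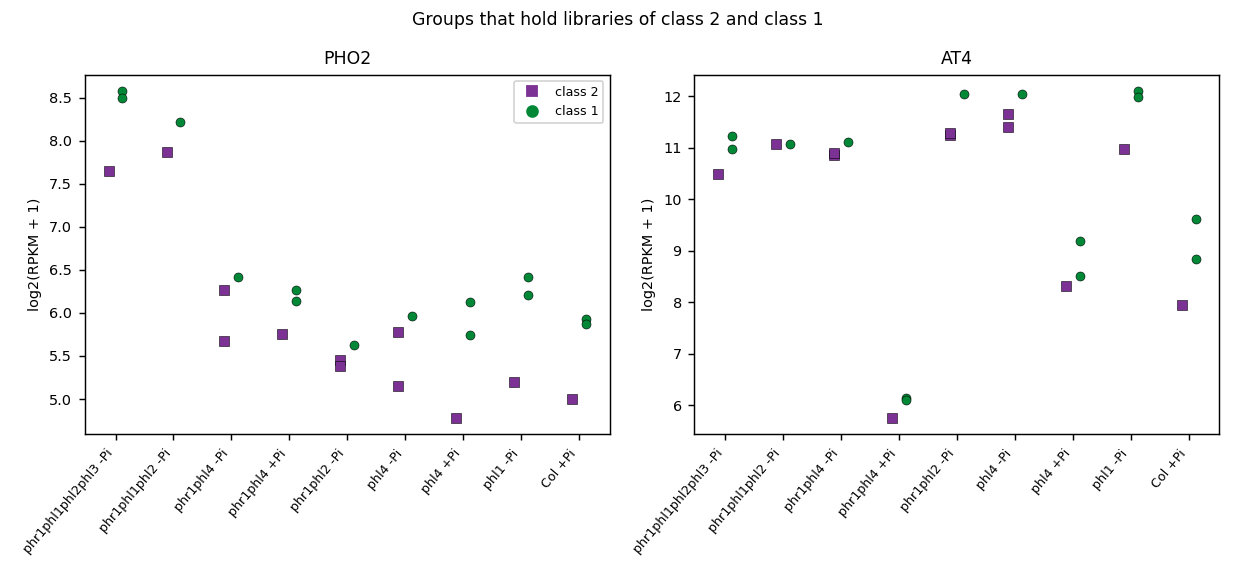
Levels of PHO2 and AT4 as log2(RPKM + 1) in the 9 groups that hold both class 2 and class 1 libraries. Each point is 1 library and its shape and colour give the class. In all 9 groups the class 2 libraries lie below the class 1 libraries for both genes. The share of all genes that do so is not given.

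Under -Pi, loss of PHR1 by itself took away most of the miR399 precursors, lowered IPS1 and gave no call at AT4, MIR827, PHO2 or NLA. IPS1 was at 839, 998 and 718 RPKM in phr1 -Pi roots, 41.3% of the Col mean, and its log2 difference was -1.28 ± 0.31 (limma, adjusted p = 0.00219). With a pseudocount of 0.1 in place of 1 the adjusted p of IPS1 was 0.076. AT4 was at 4779, 5333 and 4403 RPKM in phr1 -Pi roots, 97.7% of the Col mean, and its libraries overlapped those of Col (-0.04 ± 0.47, adjusted p = 0.99). MIR399D was at 0.483, 1.74 and 0.655 RPKM in phr1 -Pi roots, which is 1, 4 and 2 reads. It fell to 1.05% of the Col mean, with a log2 difference of -5.51 ± 0.31. MIR399C fell by 2.85 ± 0.31 to 3.81, 1.15 and 2.87 RPKM, and MIR399B by 1.23 ± 0.17. MIR827 was at 9.29, 7.96 and 7.24 RPKM in phr1 -Pi roots and did not pass (-1.11 ± 0.40, adjusted p = 0.0614). PHO2 was at 61.6, 62.9 and 63.9 RPKM in phr1 -Pi roots, overlapping Col, with a difference of -0.01 ± 0.28. NLA was at 6.49, 7.99 and 7.77 RPKM (0.35 ± 0.14, adjusted p = 0.116). So 0 of 9 members were higher and 4 lower in phr1, where 2.32% of all tested genes were called higher and 0.783% lower. Among these 4 are MIR399B, MIR399C and MIR399D, which passed the filter through -Pi libraries alone, so the count is not independent of the filter.

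Loss of PHR1 and PHL1 together reached all but MIR399F. IPS1 was at 25.6, 44.9 and 27.4 RPKM in phr1phl1 -Pi roots, 1.58% of the Col mean, a log2 difference of -5.97 ± 0.31. AT4 was at 716, 1579 and 1232 RPKM, 23.7% of the Col mean, a difference of -2.15 ± 0.47 (adjusted p = 0.0002). MIR399D was listed at 0 in all 3 phr1phl1 -Pi libraries, and MIR399C was at 0.437, 0 and 0.230 RPKM. MIR827 was at 8.15, 5.68 and 5.80 RPKM (-1.40 ± 0.40, adjusted p = 0.00358). With a pseudocount of 0.1 the adjusted p of MIR827 was 0.164 in phr1phl1 and 0.0647 to 0.15 in phl2, phl3, phr1phl2, phr1phl3 and phr1phl4. PHO2 was at 287, 299 and 350 RPKM in phr1phl1 -Pi roots, 494% of the Col mean, with every library above every Col library. Its log2 difference was 2.28 ± 0.28 (adjusted p = 1.59e-09), and all 6 libraries are of class 1. NLA was at 15, 20.6 and 17.5 RPKM, 314% of the Col mean, a rise of 1.49 ± 0.14 (adjusted p = 7.76e-13). That makes 2 of 9 members higher and 6 lower, where 7.0% of all tested genes were called higher and 4.51% lower. The 6 include MIR399B, MIR399C and MIR399D, which passed the filter through -Pi libraries alone. Summed shoot markers were at 123 to 168 RPKM in phr1phl1 -Pi roots, above Col -Pi, and 4 of 5 were called higher. None of the 7 root markers was called, but some did not overlap Col -Pi roots. The root hair gene COBL9 was at 14.6, 13.7 and 14.3 RPKM, against 29.8, 28.7 and 26.7 RPKM in Col -Pi roots. The root hair gene EXP7 and the endodermis gene SCR also lay below all Col -Pi libraries, PYK10 (root ER bodies) lay above them, and CASP1, WOX5 and PLT1 overlapped. The part of shoot and root markers in the PHO2 and NLA results was not tested.

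**Figure D3:**
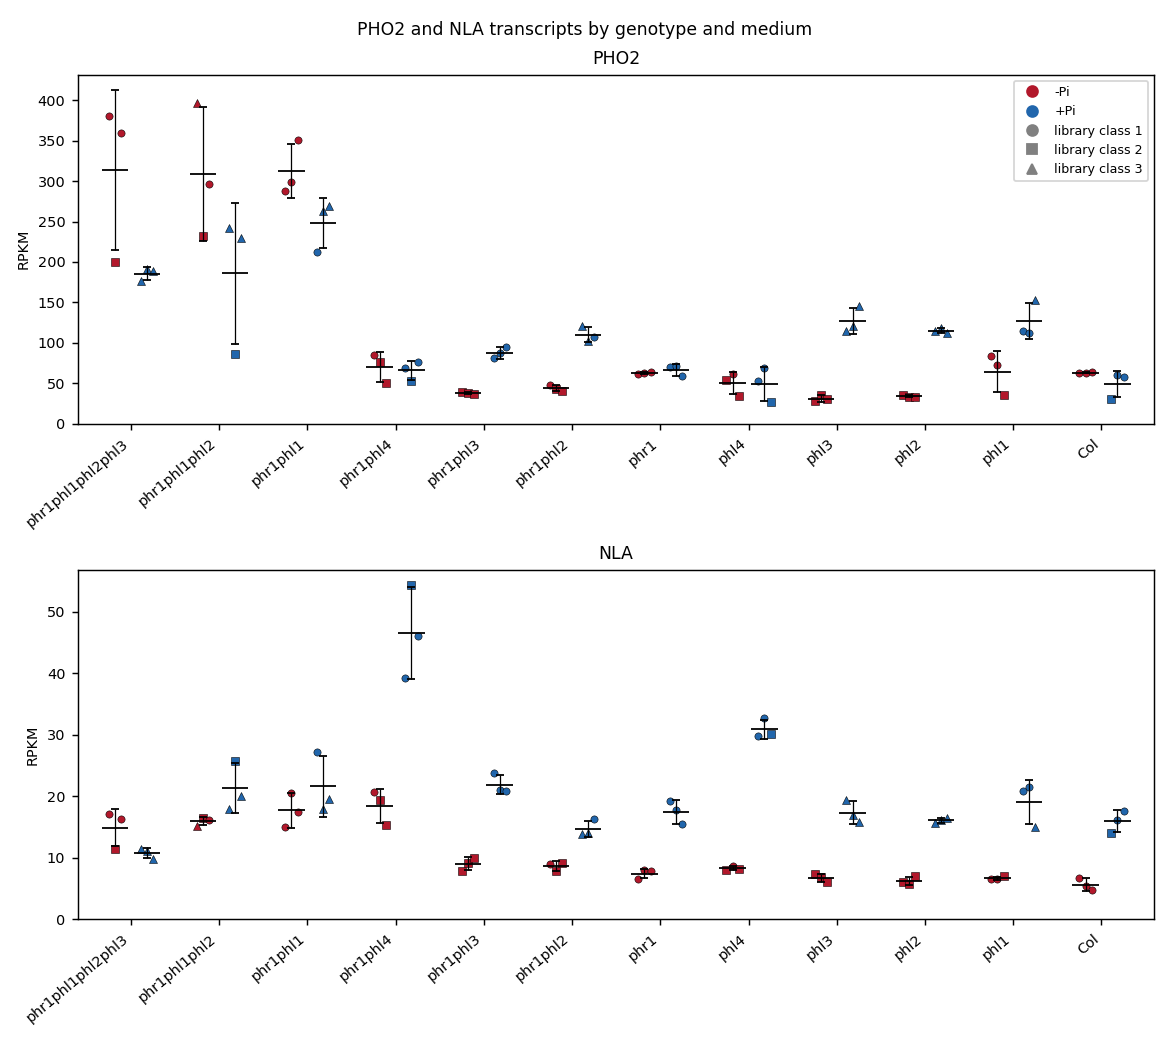
Levels of PHO2 and NLA in RPKM (axes from 0) by genotype, with -Pi to the left of +Pi. Points are libraries, with shapes for the 3 library classes, bars are means and error bars are SD (n = 3). Under -Pi, PHO2 is at 200 RPKM or more in phr1phl1, phr1phl1phl2 and phr1phl1phl2phl3 and at 84.5 RPKM or less elsewhere.

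With phl2, and then phl3 by label, added to phr1phl1 both targets again stood above Col, and neither step gave a call at a target. PHO2 was at 396, 233 and 296 RPKM in phr1phl1phl2 -Pi roots, and its difference from Col was 2.24 ± 0.28. It was at 381, 200 and 360 RPKM in -Pi roots labelled phr1phl1phl2phl3, also with a difference of 2.24 ± 0.28. The lowest library of either group is of class 2. NLA differed from Col by 1.36 ± 0.14 in phr1phl1phl2 and by 1.25 ± 0.14 in phr1phl1phl2phl3. IPS1 was at 81.2, 74.9 and 68.7 RPKM in phr1phl1phl2 -Pi roots, above the 3 phr1phl1 libraries. That step was 1.22 ± 0.31 (adjusted p = 0.033), but not with a pseudocount of 0.1 (0.527) or in a fit of both groups alone (0.236). It also ended without any 1 of 5 libraries, with an adjusted p of 0.26 and 0.20 without the first or the third phr1phl1 library, and 0.098, 0.12 and 0.077 without the first, second or the third phr1phl1phl2 library. AT4 was called lower than in Col in both, at -1.43 ± 0.47 and -1.38 ± 0.47. The AT4 call in phr1phl1phl2 ended with the class term (-0.62) and without its first library (-1.21, adjusted p = 0.062), and that in phr1phl1phl2phl3 ended without its second library (-1.18, adjusted p = 0.067). MIR827 was lowest of all -Pi groups in phr1phl1phl2phl3, at 2.36, 3.70 and 4.46 RPKM (-2.16 ± 0.40 against Col). Its difference from phr1phl1phl2 was -1.26 ± 0.40 (adjusted p = 0.0764). In phr1phl1phl2phl3, 2 of 9 members were higher than in Col and 6 lower, where 11.4% of all tested genes were called higher and 5.65% lower. These 6 also include MIR399B, MIR399C and MIR399D, which passed the filter through -Pi libraries alone. Summed shoot markers were at 79.7 to 378.9 RPKM in phr1phl1phl2 and at 271 to 393 RPKM in phr1phl1phl2phl3. In Col -Pi roots they were at 8.35 to 9.86 RPKM. Of 5 shoot markers, 4 were called higher in phr1phl1phl2 and 5 in phr1phl1phl2phl3. Over all 11 mutants under -Pi, 8.5% of all tests were called higher than Col. Of 7 root markers, the root hair gene COBL9 was called lower in both (-1.17 ± 0.15 and -1.36 ± 0.15), and WOX5 was called higher in phr1phl1phl2phl3 (1.29 ± 0.26). Summed root markers were at 6641 to 9448 RPKM and 5129 to 9703 RPKM, against 6374 to 6911 RPKM in Col -Pi roots. Most of each sum is PYK10, at 6476 to 9283 RPKM and 4945 to 9536 RPKM, against 6138 to 6677 RPKM in Col -Pi roots. The part of these markers in the PHO2 and NLA results was not tested.

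In phr1phl4, NLA was called higher than in Col and PHO2 was not. NLA was at 20.6, 19.3 and 15.3 RPKM in phr1phl4 -Pi roots, 327% of the Col mean, a rise of 1.55 ± 0.14 (adjusted p = 1.66e-13). PHO2 was at 84.5, 75.8 and 49.9 RPKM, overlapping Col, with a difference of 0.11 ± 0.28 (adjusted p = 0.749). IPS1 was at 140, 127 and 107 RPKM in phr1phl4 -Pi roots, 6.05% of the Col mean (-4.03 ± 0.31). AT4 was at 2218, 1861 and 1898 RPKM (-1.32 ± 0.47, adjusted p = 0.0168, and -0.90 with the class term). MIR827 differed by -1.41 ± 0.40 (adjusted p = 0.0564 in a fit of both groups alone), and by -0.78 without the third phr1phl4 library, where the call ended. Of 9 members 1 was higher and 6 lower, where 12.9% of all tested genes were called higher and 6.05% lower. MIR399B, MIR399C and MIR399D, which passed the filter through -Pi libraries alone, are among these 6. Summed shoot markers stood at 1086 to 1227 RPKM in phr1phl4 -Pi roots, the highest of all groups, and all 5 were called higher. Of 7 root markers 1, SCR, was called lower (-1.1 ± 0.16). Summed root markers were at 3492 to 4441 RPKM, against 6374 to 6911 RPKM in Col -Pi roots. That sum is mostly PYK10, at 4234, 3823 and 3283 RPKM against 6138, 6677 and 6593 RPKM. Means of EXP7 (91.7 against 87.2 RPKM) and WOX5 (3.55 against 1.32 RPKM) were higher than in Col -Pi roots, and those of CASP1, COBL9 and PLT1 lower. The part of these markers in the NLA result was not tested. By itself, phl4 gave higher MIR399C values, 49.2, 84.9 and 25.6 RPKM, which overlapped Col and were just short of a call (0.98 ± 0.31, adjusted p = 0.0104).

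The single mutants phl1, phl2 and the libraries labelled phl3 had MIR399D at 29.0%, 34.1% and 27.2% of the Col mean under -Pi, and MIR399C at 50.4%, 58.9% and 75.7%, which was not called. MIR399D was at 32.8, 32.6 and 13.8 RPKM in phl1, at 36.7, 30.7 and 25.7 RPKM in phl2 and at 21.5, 22.2 and 30.7 RPKM in those labelled phl3, all below the Col libraries and all called lower (-1.75, -1.44 and -1.76). IPS1 was called lower in phl2 (-1.26 ± 0.31) and in libraries labelled phl3 (-1.38 ± 0.31). Their values with the class term, -0.61 and -0.72, did not pass. PHO2 was called lower in libraries labelled phl3 at -1.0 ± 0.28. That call ended with the class term (-0.29), without the third Col library (-0.99) and without the first (-0.93) or the third (-0.98) library labelled phl3. In phl1 the MIR399D call ended with a pseudocount of 0.1 (adjusted p = 0.083) and in a fit of both groups alone (0.709), and the MIR399B call likewise (0.095 and 0.154). MIR827 was called lower in phl2 (-1.71), phl3 (-1.37), phr1phl2 (-1.73) and phr1phl3 (-1.47), and with the class term it was -0.87 in phl3 and -0.97 in phr1phl3, where those calls ended. MIR399B was called lower in phl1 (-1.04), phl3 (-1.17) and phl4 (-1.12). Those calls ended without the second Col or second phl1 library (-0.98 and -1.0), the third library labelled phl3 (-0.97) and the third phl4 library (-0.78). Over all 11 mutants 7 of 99 member tests were called higher than Col under -Pi and 47 lower, where 8.5% of all tests were called higher and 3.83% lower. IPS1 was called lower in 9 mutants, MIR399D in 10, MIR399B in 9, MIR399C in 7, MIR827 in 7 and AT4 in 4. Since MIR399B, MIR399C and MIR399D passed the filter through -Pi libraries alone, the count of lower calls is not independent of the filter. MIR399F had reads in 9 of 36 -Pi libraries, at most 1.56 RPKM (phl4), and was listed at 0 in every mutant that carries phr1.

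**Figure D4:**
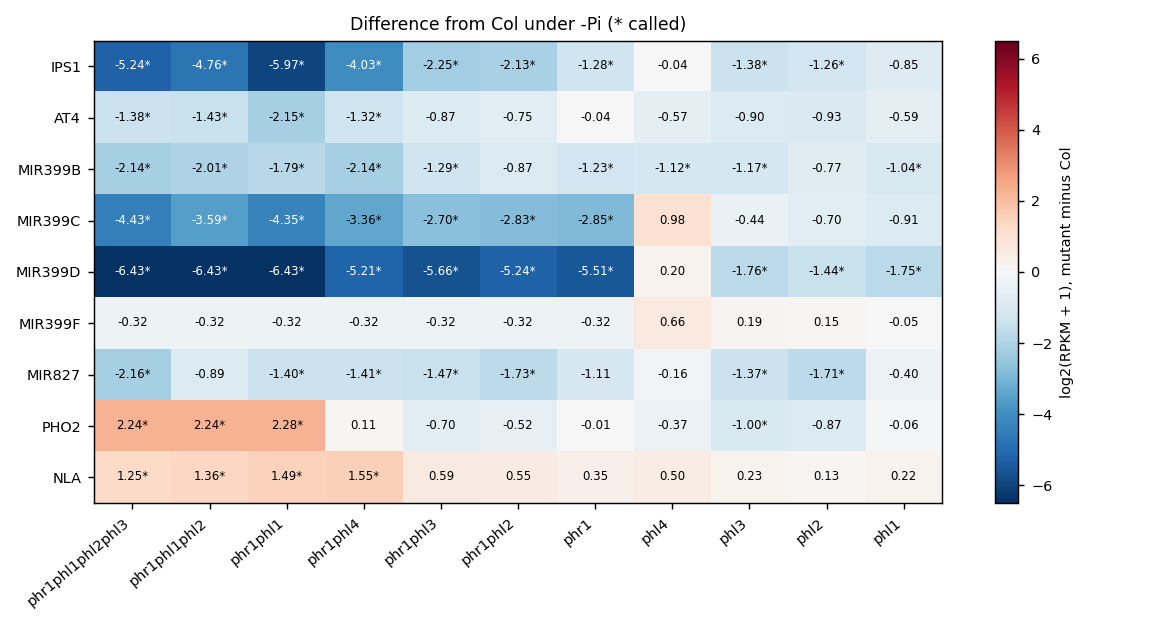
Log2 differences (log2(RPKM + 1) scale) of each mutant minus Col under -Pi, with members as rows and mutants as columns. A star marks a call, with adjusted p under 0.05 and a difference of at least 1 either way. IPS1 is called lower in 9 and MIR399D in 10 of 11 mutants, while PHO2 and NLA are called higher together in phr1phl1, phr1phl1phl2 and phr1phl1phl2phl3.

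**Figure D5:**
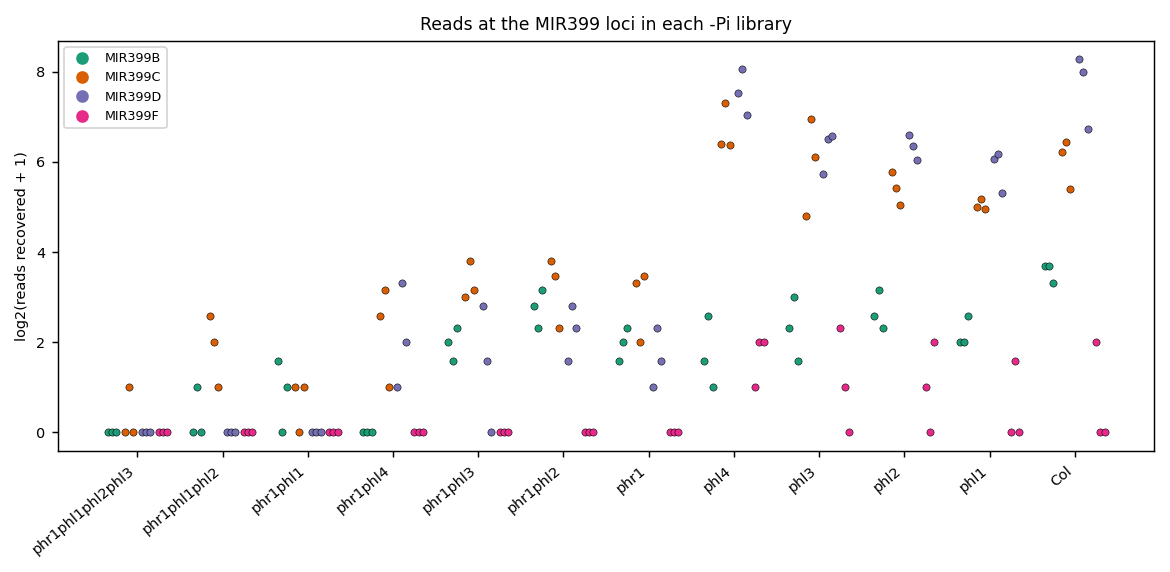
Reads on MIR399B, MIR399C, MIR399D and MIR399F in each -Pi library, as log2(reads + 1), by genotype. Each point is 1 library. MIR399D has 106 to 309 reads in Col and 0 to 9 reads in every mutant that carries phr1.

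Ordered by mean level under -Pi (± SD, n = 3), the highest IPS1 groups were phl4 (2101 ± 864 RPKM) and Col (2062 ± 303), which overlapped. Next, with neighbours overlapping, came phl1 (1233 ± 546), phl2 (853 ± 19.0), phr1 (852 ± 140) and libraries labelled phl3 (790 ± 83.8). The libraries labelled phl3 all lay above those of phr1phl2 (487 ± 178), which overlapped phr1phl3 (430 ± 4.68), and phr1phl3 lay above phr1phl4 (125 ± 16.6). The lowest were phr1phl1phl2 (74.9 ± 6.22), phr1phl1phl2phl3 (55.1 ± 18.1) and phr1phl1 (32.6 ± 10.7). MIR399D fell into 4 sets, which met only at 1 phr1phl3 library listed at 0: phl4 and Col, then phl2 (31.0 ± 5.50), phl1 (26.4 ± 10.9) and phl3 (24.8 ± 5.11), then 0.918 to 1.46 RPKM in the 4 other genotypes with phr1 and an intact PHL1, and 0 in the 3 that lack both. The neighbours in the order of MIR827, from Col (19.8 ± 7.66) to phr1phl1phl2phl3 (3.51 ± 1.07), all overlapped. For PHO2 the 3 genotypes without PHR1 and PHL1 averaged 308 to 313 RPKM with overlap and lay above all others, of which phr1phl4 was the next (70.1 ± 18.0) and libraries labelled phl3 the lowest (31.2 ± 3.93). For NLA those 3 and phr1phl4 averaged 14.9 to 18.4 RPKM with overlap, above phr1phl3 (8.98 ± 1.07) and the rest down to Col (5.63 ± 0.984).

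Each double mutant was also set against its parents under -Pi, and phr1phl1 was the double mutant with PHO2 called higher than in either parent. From phr1 to phr1phl1, IPS1 fell by 4.70 ± 0.31, AT4 by 2.11 ± 0.47 and MIR399C by 1.5 ± 0.31, while PHO2 rose by 2.29 ± 0.28 and NLA by 1.14 ± 0.14 (limma, adjusted p at most 0.000365). In that step 2 of 9 members were higher and 3 lower, where 3.68% of all tested genes were called higher and 4.35% lower. From phr1 to phr1phl4, IPS1 fell by 2.76 ± 0.31 and NLA rose by 1.20 ± 0.14. AT4 was called lower there at -1.28 ± 0.47 (adjusted p = 0.0249), which ended with the class term (-0.86) and without the first (-1.29, adjusted p = 0.052) or second (-1.21, 0.072) phr1 library or the second (-1.23, 0.062) or the third (-1.25, 0.067) phr1phl4 library. PHO2 differed by 0.12 ± 0.28 in that step (adjusted p = 0.746). There, 1 of 9 members was higher and 2 lower, where 7.41% of all tested genes were called higher and 4.83% lower. From phl4 to phr1phl4, NLA rose by 1.06 ± 0.14, which was 0.97 without the first phr1phl4 library and 0.95 with median ratio scaling, both under the threshold. From phr1 to phr1phl2 and phr1phl3, IPS1 differed by -0.85 ± 0.31 and -0.97 ± 0.31, short of the log2 threshold. From phl1 to phr1phl1, PHO2 rose by 2.35 ± 0.28 and NLA by 1.28 ± 0.14, while IPS1 fell by 5.12 ± 0.31. AT4 fell there by 1.56 ± 0.47 (adjusted p = 0.00708), a call that ended without the first phr1phl1 library (-1.24, adjusted p = 0.062). Adding phr1 to phl1, phl2, phl3 or phl4 lowered MIR399D by 4.68, 3.80, 3.90 and 5.42 and MIR399C by 3.44, 2.12, 2.26 and 4.34. Over these 10 steps 7 of 90 member tests were called higher and 18 lower, where 4.39% of all tests were called higher and 2.63% lower. Among the 18 are calls of MIR399B, MIR399C and MIR399D, which passed the filter through -Pi libraries alone.

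With phosphate, the mutants differed from Col mainly at AT4 and PHO2. AT4 was at 3.25, 1.82 and 2.74 RPKM in phr1phl1 +Pi roots, against 244, 781 and 454 RPKM in Col +Pi roots, that is 0.53% of the Col mean. It was at 2.31, 6.61 and 1.21 RPKM in phr1phl1phl2 and at 1.53, 1.5 and 1.22 RPKM in libraries labelled phr1phl1phl2phl3. The log2 differences were -6.96 ± 0.47, -6.86 ± 0.47 and -7.52 ± 0.47, with no overlap with Col. In phr1 +Pi roots AT4 was at 229, 219 and 239 RPKM (-0.95 ± 0.47, adjusted p = 0.145). In all, AT4 was called lower in 9 mutants. With the class term it was -0.97 in phl1, -0.97 in phl2 and -0.85 in phl3, where those calls ended. Leaving out 1 library ended the AT4 call in phl1 (the third phl1 library, -0.43; the second or the third Col library, -0.95 and -1.34). In phr1phl3 it ended without the second or the third Col library (-1.03 and -1.42) or any of the phr1phl3 libraries (-1.35, -1.46 and -1.5).

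PHO2 was high on either medium in the mutants that lack both PHR1 and PHL1. It was at 213, 263 and 269 RPKM in phr1phl1 +Pi roots, 501% of the Col mean, a rise of 2.35 ± 0.28 (adjusted p = 3.62e-09). It rose by 1.81 ± 0.28 in phr1phl1phl2 and by 1.94 ± 0.28 in libraries labelled phr1phl1phl2phl3. PHO2 was also called higher in phl1, phl2, phl3 and phr1phl2 (1.38, 1.26, 1.39 and 1.19), where it was 0.67, 0.80 and 0.72 with the class term in phl2, phl3 and phr1phl2. Without the first Col +Pi library, which is of class 2, PHO2 was at 0.96 in phl2 and 0.90 in phr1phl2, and both calls ended. NLA was at 39.3, 54.4 and 46.0 RPKM in phr1phl4 +Pi roots, against 14.0, 16.1 and 17.6 RPKM in Col +Pi roots, a rise of 1.49 ± 0.14 (adjusted p = 2.23e-12). In phl4 +Pi roots NLA was at 29.9, 32.7 and 30.2 RPKM, above all Col values (0.92 ± 0.14, short of the log2 threshold). IPS1 was called lower in 6 mutants, all at 0.631 RPKM or less. MIR399B, MIR399D and MIR399F were listed at 0 in all 36 +Pi libraries, and MIR399C had 1, 2 and 1 reads in the phr1phl4 libraries and none elsewhere. Fitted with Col alone, the calls of AT4 in phl1, phr1phl2 and phr1phl3, of IPS1 in phr1phl1, phr1phl2 and phr1phl1phl2 and of PHO2 in phl1, phr1phl2 and phr1phl1phl2 ended, with adjusted p of 0.0538 to 0.358. Over the 11 mutants 8 of 99 member tests were called higher and 15 lower, where 1.1% of all tests were called higher and 4.91% lower.

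The response itself was tested as the difference between a mutant's change and that of Col. It was larger for AT4 in phr1phl1 (4.82 ± 0.67), phr1phl1phl2 (5.43 ± 0.67) and phr1phl1phl2phl3 (6.14 ± 0.67), whose +Pi levels were the lowest. It was smaller for IPS1 in phr1phl1 (-4.04 ± 0.44), phr1phl4 (-3.06 ± 0.44), phr1phl1phl2 (-2.76 ± 0.44) and phr1phl1phl2phl3 (-3.44 ± 0.44). With a pseudocount of 0.1 the IPS1 differences were -1.58 in phr1phl1, 0.11 in phr1phl1phl2 and -1.44 in phr1phl1phl2phl3 (adjusted p = 0.0574, 0.918 and 0.0634). The PHO2 response in phr1phl1 differed from that of Col by -0.07 ± 0.40 (adjusted p = 0.903), with high levels on both media. NLA in phr1phl1 lacked most of its decrease (1.09 ± 0.20, adjusted p = 2.18e-05). That value was 0.87 with the class term, 0.98 without the second phr1phl1 library of -Pi or of +Pi and 1.0 without the third Col -Pi library, where the call ended each time. Over the 11 mutants 8 of 99 member tests were called higher and 41 lower, where 15.2% of all tests were called higher and 6.26% lower. The lower calls include 9 of MIR399B, 7 of MIR399C and 10 of MIR399D, which passed the filter through -Pi libraries alone. Of these MIR399 calls 25 only repeat the -Pi difference, since the +Pi groups are listed at 0. The count of 41 is therefore not independent of the filter or of the -Pi comparison.

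The P1BS element was searched as GNATATNC, which reads the same on both strands, in the 1000 bases before each annotated start. For MIR loci that start is the start of the hairpin. IPS1, AT4, MIR399B and MIR399D held 2 copies, MIR399C, MIR399F and MIR827 held 3, and PHO2 and NLA held 1. Of 32834 genes searched, 19.7% held at least 1 copy and 2.7% at least 2. Some of the copies at members called higher in Col -Pi roots are shown with the element in capitals, on the strand of the gene. Not shown are the copies of MIR399B and MIR399C, that of AT4 at 564 bases (GTATATGC) and that of MIR399D at 169 bases (GAATATGC).
IPS1, 582 bases before the start: tggtaacgGCATATTCcatcggat
IPS1, 548 bases before: tctcaaaaGCATATTCacgtaaga
AT4, 26 bases before: ggtaattgGCATATTCcttttaga
MIR399D, 332 bases before: tataaagaGCATATGCtatggaac
MIR827, 96 bases before: attccaaaGCATATGCttaagaat
MIR827, 84 bases before: atgcttaaGAATATCCatagaata
MIR827, 73 bases before: tatccataGAATATTCttgtctgg
The 3 copies of MIR827 lay within 100 bases of its hairpin, and IPS1 held the letters GCATATTC at both of its places. No binding was measured here.

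Phosphate transporters and related transport proteins, some of which PHO2 and NLA are known to act on, were mostly higher at the RNA level under -Pi. Of 10 listed genes, 8 were called higher and 0 lower in Col -Pi against Col +Pi roots (median 3.17, against 0.02 over all tested genes, of which 6.24% were higher and 8.2% lower). PHT1;2 rose by 5.92 ± 0.13, PHT1;4 by 4.42 ± 0.10, PHT1;8 by 3.79 ± 0.13 and PHT1;7 by 3.68 ± 0.07, all of them phosphate transporters. PHO1 (-0.91 ± 0.17) and PHT1;3 (0.54 ± 0.07) did not pass. Under -Pi, 5 of the 10 were lower and 0 higher in phr1 than in Col (median -0.82; 0.783% of all tested genes were lower), with PHT1;7 at -3.27 ± 0.07 and PHT1;2 at -2.55 ± 0.13. In phr1phl1, 6 were lower and 0 higher (median -1.53; 4.51% of all), with PHT1;2 at -4.31 ± 0.13 and PHT1;8 at -4.03 ± 0.13. In phr1phl4 4 were lower (6.05% of all), and in the libraries labelled phr1phl1phl2phl3 7 were (5.65% of all).

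Genes for the machinery that makes and turns over microRNAs were also listed. Of 9 genes, among them DCL1, which cuts the precursors, 0 were called in Col -Pi against Col +Pi roots (median 0.29), where 6.24% of all tested genes were called higher and 8.2% lower. The values farthest from 0 were those of SDN1, a microRNA-degrading nuclease (0.91 ± 0.31), the exporter HST (0.55 ± 0.25), DCL1 (0.41 ± 0.22) and CPL1 (0.34 ± 0.21). In the mutants some were called between media, where 12.4% of all tests over the 12 genotypes were called higher and 5.64% lower. AGO1, which carries microRNAs, was lower under -Pi in phl2 (-1.24 ± 0.22), in libraries labelled phl3 (-1.36 ± 0.22) and in those labelled phr1phl1phl2phl3 (-1.14 ± 0.22), and CPL1 was lower in phl2 (-1.04 ± 0.21). SDN1 was higher under -Pi in phr1phl1 (1.33 ± 0.31), phr1phl1phl2 (1.11 ± 0.31) and libraries labelled phl3 (1.07 ± 0.31). In phl2 and phl3 all +Pi libraries are of class 3 and all -Pi libraries of class 2, so medium and class cannot be told apart. The other genotypes named here also differ in class between media, and the class term was not examined for these genes. Against Col under -Pi the 1 call over the 11 mutants was SDN1 in phr1phl4 (-1.03 ± 0.31). In those comparisons 8.5% of all tests were called higher and 3.83% lower. Of 5 other phosphate-linked MIR loci in the table, MIR2111a passed the filter and was higher in Col -Pi roots (1.49 ± 0.20). MIR399a, MIR399e and MIR778 never exceeded 0.888 RPKM, and MIR2111b was listed at 0 in all libraries. Of 91 tested MIR loci outside the members, 19 were higher and 2 lower in Col -Pi roots (median 0.42), against the same 6.24% and 8.2% of all tested genes. The 4 farthest from 0 were MIR156a (2.58), MIR163 (-2.41), MIR839 (2.20) and MIR156c (1.79).

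The genes most like each member were those with the highest Pearson r of mean log2(RPKM + 1) over the 24 groups, a description in which all genes share the same libraries. For IPS1 they were AT1G08165 (0.992), AT3G19970 (0.992) and AT3G61410 (0.988). AT4 had PFA-DSP4 (0.946), the phosphate sensor SPX1 (0.927) and AT2G24390 (0.925). MIR399D had the transporter PHT1;7 (0.991), SK11 (0.986) and scpl22 (0.985), and MIR399C had AT2G34210 (0.988), the purple acid phosphatase PAP23 (0.986) and AT1G67610 (0.980). MIR399B had AT1G73325 (0.933), PHT1;5 (0.929) and scpl23 (0.929). MIR399F, with few reads, had AT1G52470, PAP6 and PAP11 (0.978 each). Of the 36 +Pi libraries, MIR399B, MIR399D and MIR399F were listed at 0 in all and MIR399C in 33. A gene that is also near 0 under +Pi therefore tends to have a high r with these 4 loci. MIR827 had AT4G23000 (0.968), RLP50 (0.967) and WOX11 (0.967). PHO2 had lower values, with KAO2 (0.903), AT5G27410 (0.883) and AT5G35560 (0.876). NLA had AT2G34000 (0.954), AT5G59260 (0.946) and SPX4 (0.936).

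Reads of neighbours bear on some members. The labels do not state strand, and NLA overlaps AT1G02870 on the opposite strand in the TAIR10.1 annotation, so their reads cannot be told apart where they overlap. AT1G02870 was at 8.28, 6.30 and 7.78 RPKM in phr1phl1 -Pi roots, against 7.4, 5.48 and 6.32 RPKM in Col -Pi roots, while NLA was at 314% of its Col mean. IPS1 lies 79 bases from AT3G09925, on the opposite strand. PHO2 lies 7 bases from AT2G33760, which was at 1.05 RPKM or less in Col, phr1 and phr1phl1.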

How the data were processed

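RNA from roots was captured with oligo(dT) beads, per the labels' protocols. The authors deposited 1 table of RPKM with 33602 genes and 72 library columns, matched to the labels by name with 0 left over. The tools TopHat and edgeR and the build TAIR10 are listed, per the submitters' processing notes. Versions, strand and read length are not given in the sources used here. Names, transcripts and sequences came from RefSeq's TAIR10.1, to which 32835 of the 33602 identifiers matched, and no coordinates are given because the builds differ.

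The 21206 genes that reached 1 RPKM in at least 3 libraries were fitted on log2(RPKM + 1) with limma (3.58.1, R 4.3.3; trend and robust settings) in 1 model of all 72 libraries with 24 group means. P-values were adjusted by Benjamini-Hochberg over these genes within each of 55 comparisons. A call needed an adjusted p under 0.05 together with a log2 difference of at least 1 in size. The fit was tested on simulated data. Tables were handled in Python 3.11.15 (pandas 2.3.3, numpy 2.4.6).

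Depth was estimated from 600 low values per library in genes with 1 exon; 58.3% to 76.5% of them lay within 0.05 of a whole read, too few for a count test. Library classes come from k-means (scikit-learn 1.9.0, 50 starts, mean silhouette 0.572 for 3 classes) on the slopes of 9201 genes' values on GC content, adenine content and length. The mean silhouette was 0.495 for 2 and 0.482 for 4 classes.

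Same-numbered libraries had correlations over 0.1 in all 3 pairs in 2 of 44 comparisons, so the numbers do not pair libraries. As alternatives, median ratio scaling, no filter (29088 genes), a pseudocount of 0.1, the replicate block, the class term, the compared groups alone and each library left out were run. Members, lists, comparisons and alternatives were chosen with earlier results of these data known. Named are the members, the 3 genes most like each, PHR1 to PHL4, and up to 4 genes of each list with the largest Col response.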

Additional observations from a re-analysis of the deposited data

Results flagged for a closer look

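In 24 cases a mutant's response to -Pi differed from that of Col by the test of the difference itself (limma, log2(RPKM + 1) scale, adjusted p under 0.05 and a log2 difference of at least 1). Another 25 called differences of MIR399 loci repeat the -Pi difference, since the +Pi groups are listed at 0, and are left out here.

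The response of AT4 was larger than in Col by 1.63 in phl2, 1.53 in phl3, 4.82 in phr1phl1, 2.57 in phr1phl2, 5.43 in phr1phl1phl2 and 6.14 in phr1phl1phl2phl3. With the class term the phl2 and phl3 values were 0.67 and 0.57 and did not pass. They also ended without the second Col +Pi library (1.22 in phl2 and 1.13 in phl3), among others.

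The response of IPS1 was smaller by -4.04 in phr1phl1, -1.39 in phr1phl3, -3.06 in phr1phl4, -2.76 in phr1phl1phl2 and -3.44 in phr1phl1phl2phl3. The phr1phl3 value was -0.52 with the class term and -0.95 without the first Col +Pi library. With a pseudocount of 0.1 the values were -1.58 in phr1phl1, -1.08 in phr1phl3, 0.11 in phr1phl1phl2 and -1.44 in phr1phl1phl2phl3, and none of these 4 passed (adjusted p 0.0574 to 0.918).

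MIR827 differed by -1.88 in phl2, -1.56 in phl3, -1.88 in phr1phl2, -1.29 in phr1phl3 and -1.98 in phr1phl1phl2phl3. None of these 5 passed with a pseudocount of 0.1, and the first 4 did not pass with the class term. The phr1phl3 call ended without any 1 of 9 libraries (-1.06 to -1.29), and the phl3 call without the first phl3 +Pi library (-1.20) or the first Col -Pi library (-1.34).

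PHO2 differed by -1.45 in phl1, -2.13 in phl2, -2.39 in phl3, -1.71 in phr1phl2 and -1.56 in phr1phl3. With the class term the values in phl1, phl2, phr1phl2 and phr1phl3 were -0.85, -0.83, -0.76 and -0.61, under the log2 threshold. The phl1 call also ended without the first Col +Pi library (-1.15) or the third phl1 -Pi library (-1.08).

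NLA differed by 1.09 in phr1phl1 and by 1.78 in phr1phl1phl2phl3. The phr1phl1 call ended with the class term. All +Pi libraries labelled phr1phl1phl2phl3 are of class 3 and none of its -Pi libraries are, so its media differ in class. MIR399C differed by -4.00 in phr1phl4, the 1 genotype with MIR399C reads under +Pi. In the libraries labelled phl3 and phr1phl1phl2phl3 the PHL3 transcript does not show the labelled mutation.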

How the results depend on the processing

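Of 221 called tests of members, 20 lost the call when the compared groups were fitted alone, 31 with the class term, 3 with median ratio scaling, 2 with no filter and 24 with a pseudocount of 0.1. The replicate block changed 0 calls; all 3 same-numbered pairs correlated over 0.1 in 2 of 44 comparisons, so the numbers were not taken as a pairing. Median ratio scaling moved the median of all genes by over 0.1 log2 in 26 of 55 comparisons (-0.25 to 0.15). With the class term, member tests called lower under -Pi than +Pi numbered 8 in place of 13. Member tests called higher than Col under +Pi numbered 5 in place of 8 with the class term and 5 with the compared groups alone, and those called lower 9 in place of 15 with the compared groups alone. The shares of all tests given above are those of the main fit. The difference of the IPS1 response between phr1phl1phl2 and Col changed sign, to 0.11, with a pseudocount of 0.1. The cause of these changes was not tested. Leaving out each of 72 libraries in turn gave 56 to 58 member tests called higher and 12 to 13 lower for the -Pi response. The numbers were 7 to 8 and 45 to 48 against Col under -Pi, and 6 to 9 and 13 to 17 against Col under +Pi. They were 6 to 10 and 38 to 43 for the difference in response, and 6 to 7 and 16 to 20 for the added mutation. In all, 33 called tests lost the call without some library. Depth limits the MIR loci: MIR399F had 0 to 4 reads in any library.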
